A study of Mus musculus with 27 samples.

Results

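Cells of the ventral tegmental area (VTA) were compared with cells of the substantia nigra pars compacta (SNc) in mice at postnatal day 7 (P7), the infant stage of the study. The comparison rests on 6 of the study's 27 RNA libraries, 3 VTA P7 and 3 SNc P7 libraries, chosen by their region and age labels. The study took 3 brain regions at 3 ages, dissociated the tissue, isolated cells positive for the dopamine transporter DAT by flow cytometry and sequenced them by SMART-seq2, a full-length method for small amounts of RNA. Both groups carried the C57/BL6 genotype, were labelled dopaminergic neuron, and had no treatment or engineered allele in the labels. The design names 5 mice for each age while the 3 regions give 9 libraries an age, and no label ties a library to a mouse, so pooling and shared animals are unknown. The p-values below therefore measure only the spread between libraries, which may be technical. The main fit took in all 27 libraries, so that spread was estimated over the 3 regions and 3 ages, not over the 6 libraries alone. All P7 libraries, those of the nucleus accumbens (NAc) included, carry the same date and run prefix in their labels.

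The VTA and the SNc are neighbouring groups of midbrain dopamine neurons. SNc neurons project mainly to the dorsal striatum and serve movement, whereas VTA neurons project to the nucleus accumbens and cortex and serve reward and motivation. The same tissue holds microglia, the resident macrophages of the parenchyma, and its vessels and meninges hold border-associated macrophages, a separate resident population marked by Mrc1, Lyve1 and F13a1. In the first postnatal weeks both macrophage populations still divide, and NF-kB and interferon signalling control much of their chemokine and defence gene expression.

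The VTA P7 libraries held 11008503, 11147696 and 10090855 reads in genes and the SNc P7 libraries 13802952, 13276290 and 13654233. Genes with at least 1 read numbered 13954 to 16278 in VTA P7 and 17800 to 19082 in SNc P7. Spearman correlations over the genes tested were 0.624 to 0.678 between VTA libraries, 0.824 to 0.835 between SNc libraries and 0.609 to 0.711 between the groups, a description across genes, which are not independent replicates. VTA P7 replicate 3 had the fewest reads and genes and the highest share of mitochondrially encoded protein-coding reads, 12.3%, against 9.999% and 7.12% in the other VTA libraries and 4.36% to 5.60% in SNc P7. Levels below are FPKM put on 1 scale for all libraries (rescaled FPKM), so they compare genes per length, and fold changes are on the log2(value + 1) scale, which understates low genes.

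The dopaminergic label was checked against the genes that define these neurons. Slc6a3, which encodes DAT, the protein used for the sort, had 1, 0 and 0 reads in VTA P7 and 3, 64 and 2519 in SNc P7, or 0.0263, 0 and 0 in VTA P7 and 0.0629, 1.39 and 53.4 in SNc P7 as rescaled FPKM. Th, the rate-limiting enzyme of dopamine synthesis, was at 0, 0.190 and 0.293 in VTA P7 and 3.34, 14.6 and 0 in SNc P7. All VTA libraries were near 0 for both genes. SNc P7 replicate 3 held nearly all SNc Slc6a3 and was the same library that was at 0 for Th, and the groups overlapped for Th. Neither difference passed limma's test (log2 fold change -2.36 ± 0.92, adjusted p = 0.203 for Slc6a3 and log2 fold change -1.82 ± 0.96, adjusted p = 0.390 for Th, with ± giving the SE). Pitx3, En1 and Foxa2, transcription factors of midbrain dopamine neurons, had no read in any of the 6 libraries. C1qb, a complement gene of microglia and macrophages, stood at 836, 1175 and 1191 in VTA P7 and 2971, 3281 and 3147 in SNc P7. Both groups thus held complement RNA far above Th and Slc6a3, which goes against the label of dopaminergic neurons, so the libraries are called by region and age here.

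**Figure D1:**
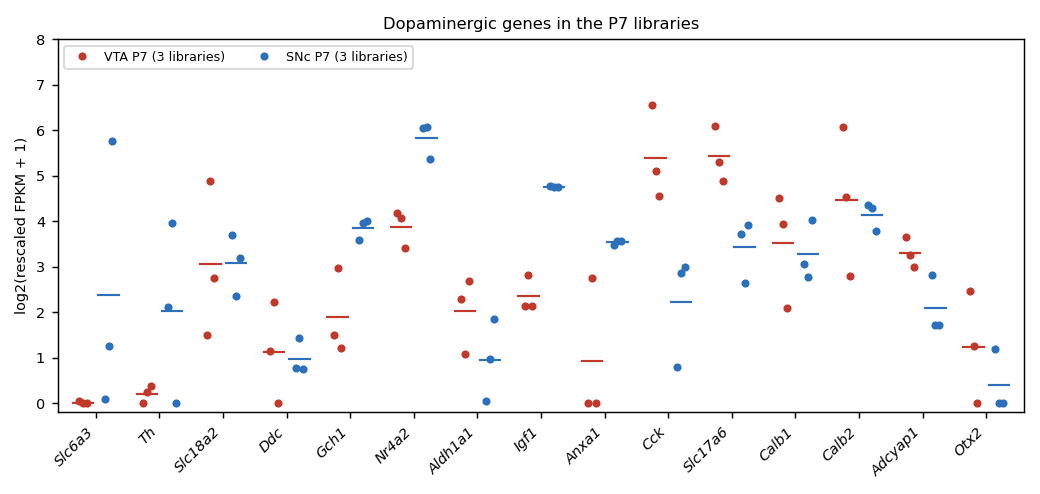
Dopaminergic genes in the P7 libraries. The y axis gives log2(rescaled FPKM + 1), points are libraries (3 VTA P7 in red, 3 SNc P7 in blue) and bars are means. Slc6a3 and Th lie near 0 in all 3 VTA libraries and spread widely over the SNc libraries, Gch1 is lower in VTA (adjusted p = 0.0325), and Cck and Slc17a6 lie higher in the VTA libraries without passing the test.

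In the VTA, 394 of 18888 genes tested (2.09%) differed from the SNc at P7 in limma's test with Benjamini-Hochberg adjustment over all genes. Of these, 126 were higher in VTA (0.667% of genes tested) and 268 were lower (1.42%), and the median log2 fold change over all genes was 0. Before adjustment, 2804 of the 18888 genes had a limma p under 0.05. Voom called 917, of which 418 were higher and 499 lower. These are the backgrounds for the counts by list below. Among the 13905 protein-coding genes tested, 68 were higher and 205 lower, and among the 4983 other genes, 58 were higher and 63 lower. The lower genes included macrophage, chemokine, interferon-response, immediate early and cell division genes, and the higher genes included Kitl, Ntng1 and Syt7. The count depended on single libraries: it was 170, 186 and 175 without SNc P7 replicates 1, 2 and 3, and without VTA P7 replicate 3 it was 312, with 169 higher and 143 lower. In bulk libraries such as these, fewer cells of a type and less RNA per cell cannot be told apart.

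**Figure D2:**
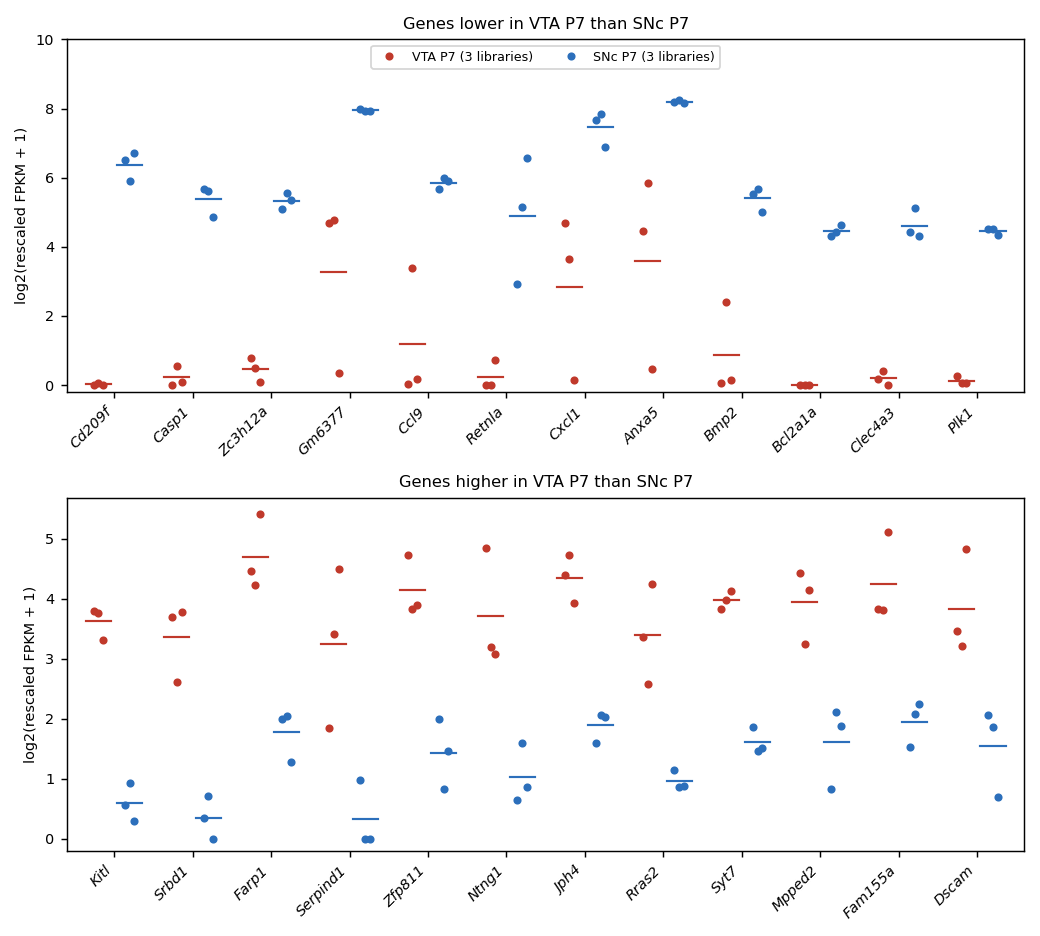
The 12 protein-coding genes with the largest decrease (top) and the 12 with the largest increase (bottom) in VTA P7 among genes that passed the test with groups apart and a mean of at least 5. The y axis gives log2(rescaled FPKM + 1), points are libraries (VTA P7 red, SNc P7 blue) and bars are means; VTA P7 replicate 3 is the lowest point for Gm6377, Cxcl1 and Anxa5.

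Border-associated macrophage genes were lower in VTA P7. Of 11 markers tested, 6 passed the test, all lower in VTA (F13a1, Folr2, Dab2, Mrc1, Stab1 and Lyve1), against 1.42% of all genes called lower, and the list's median log2 fold change was -3.44, against 0 over all genes. The values of the 3 VTA libraries lay below those of the 3 SNc libraries for all 11 markers, against 13.2% of all genes tested. F13a1, the A subunit of coagulation factor XIII (ENSMUSG00000039109, chr13:36867178-37050244, minus strand, GRCm38), was at 7.10, 16.9 and 0.0441 in VTA P7, against 114, 85.97 and 108 in SNc P7 (log2 fold change -4.27 ± 0.83, adjusted p = 0.00616). Mrc1, the mannose receptor CD206, was at 7.73, 20.7 and 0.124 in VTA P7, against 109.6, 99.9 and 82.9 in SNc P7 (log2 fold change -4.03 ± 0.93, adjusted p = 0.0215). The groups did not overlap for either gene, and VTA P7 replicate 3 was the lowest of the 6 libraries for 10 of the 11 markers.

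Folr2, the folate receptor beta of resident macrophages, was at 5.88, 6.67 and 0.0641 in VTA P7, against 28.1, 43.9 and 63.6 in SNc P7 (log2 fold change -3.52 ± 0.69, adjusted p = 0.00645). Dab2, an endocytic adaptor, was at 17.02, 32.04 and 10.5 in VTA P7, against 137, 132 and 136 in SNc P7 (log2 fold change -2.84 ± 0.65, adjusted p = 0.0205). Lyve1, a hyaluronan receptor, was at 33.1, 39.4 and 5.13 in VTA P7, against 211, 261 and 281 in SNc P7 (log2 fold change -3.62 ± 0.93, adjusted p = 0.0414), and Stab1, a scavenger receptor, averaged 3.43 ± 0.991 in VTA P7 and 23.7 ± 3.48 in SNc P7 (log2 fold change -2.50 ± 0.59, adjusted p = 0.0246). The groups were apart for all 4. Pf4, a platelet and macrophage chemokine, had 485, 497 and 63.6 in VTA P7 and 1653, 1902 and 1372 in SNc P7, and Cd163, the hemoglobin scavenger receptor, had 5.56, 5.88 and 0 in VTA P7 and 20.6, 23.2 and 18.5 in SNc P7; both lay lower in all VTA libraries without passing the test (adjusted p = 0.297 and 0.0503). F13a1 and Folr2 passed in each of the 6 fits that left out one of these libraries. F13a1 missed the threshold with pseudocount 0.1 and with the 6 libraries alone (adjusted p up to 0.124). Folr2 missed the threshold with pseudocount 0.1, with the 6 libraries alone and with voom (adjusted p up to 0.137). Dab2, Mrc1 and Lyve1 missed the threshold without VTA P7 replicate 3 or SNc P7 replicate 1, 2 or 3 (adjusted p 0.0637 to 0.195). Stab1 missed the threshold without VTA P7 replicate 2 or 3 or SNc P7 replicate 1, 2 or 3 (adjusted p 0.0542 to 0.107). Without VTA P7 replicate 3, or without any single SNc P7 library, 2 of the 11 markers passed; the median without VTA P7 replicate 3 was -2.51. With pseudocount 0.1, 0 of the 11 passed in limma's test, and with the 6 libraries alone 2 passed, while voom called 7.

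Retnla, a secreted resistin-like protein of alternatively activated mouse macrophages, was at 0, 0 and 0.662 in VTA P7, against 6.65, 34.8 and 93.2 in SNc P7 (log2 fold change -4.64 ± 0.86, adjusted p = 0.00418). Cd209f, a lectin of the DC-SIGN family, was at 0, 0.0451 and 0 in VTA P7, against 90.9, 58.7 and 104 in SNc P7 (log2 fold change -6.36 ± 1.36, adjusted p = 0.0136). Clec4a3, another C-type lectin of myeloid cells, was at 0.137, 0.338 and 0 in VTA P7, against 20.4, 33.5 and 18.9 in SNc P7 (log2 fold change -4.41 ± 1.12, adjusted p = 0.0373). VTA libraries held at most traces of these 3 genes, and Retnla spread the most among SNc libraries. Cd4, whose protein is the coreceptor of helper T cells, had 0.0225, 0 and 0.0246 in VTA P7, against 16.9, 20.4 and 18.7 in SNc P7 (log2 fold change -4.27 ± 0.50, adjusted p = 2.14e-05), whereas Cd3e, Cd3g, Cd8a and Ms4a1, which mark T and B cells, had no read in any of the 6 libraries. Of 12 T, B and NK cell markers, 2 were tested, Cd4 among them. Both were lower in all VTA libraries, against 13.2% of all genes, and 1 passed. Not all the others were silent, as 10, 8 and 10 of the 12 had no read in SNc P7 replicates 1, 2 and 3. Retnla and Cd4 passed in each of the 6 fits that left out one of these libraries. Cd4 passed under every other alternative too. Retnla missed the threshold with the 6 libraries alone and with voom (adjusted p up to 0.0869). Cd209f missed the threshold without SNc P7 replicate 1 or 3 (adjusted p 0.0529 to 0.0578). Clec4a3 missed the threshold without VTA P7 replicate 1, 2 or 3 or SNc P7 replicate 1, 2 or 3 (adjusted p 0.0579 to 0.130).

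Homeostatic microglia genes gave no call. Of 14 homeostatic microglia genes, limma called none (1 had an unadjusted p under 0.05, and voom called none), and their median log2 fold change was -0.49. Log2 fold changes were below 0 for 11 of them and above 0 for 3. All VTA libraries were lower for 5 and higher for 2, against 13.2% and 10.1% of all genes. P2ry12, a purine receptor of microglial processes, was at 36.8, 58.7 and 42.04 in VTA P7 and 101, 74.9 and 85.9 in SNc P7. The groups did not overlap for P2ry12, and its difference did not pass the test (adjusted p = 0.714). Of 15 markers shared by microglia and macrophages, only C1qb passed, against 1.42% of all genes called lower. The list's median was -1.50, with 12 markers lower in all VTA libraries, against 13.2% of all genes, and voom called 5. C1qb averaged 1067 ± 200.3 in VTA P7 and 3133 ± 156 in SNc P7 (n = 3 each; log2 fold change -1.57 ± 0.40, adjusted p = 0.0356), and Csf1r, the receptor for Csf1 on which both cell types depend, averaged 137 ± 34.8 in VTA P7 and 536 ± 21.9 in SNc P7 (adjusted p = 0.0627). C1qb missed the threshold without VTA P7 replicate 1, 2 or 3 or SNc P7 replicate 1, 2 or 3 (adjusted p 0.0513 to 0.115).

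**Figure D3:**
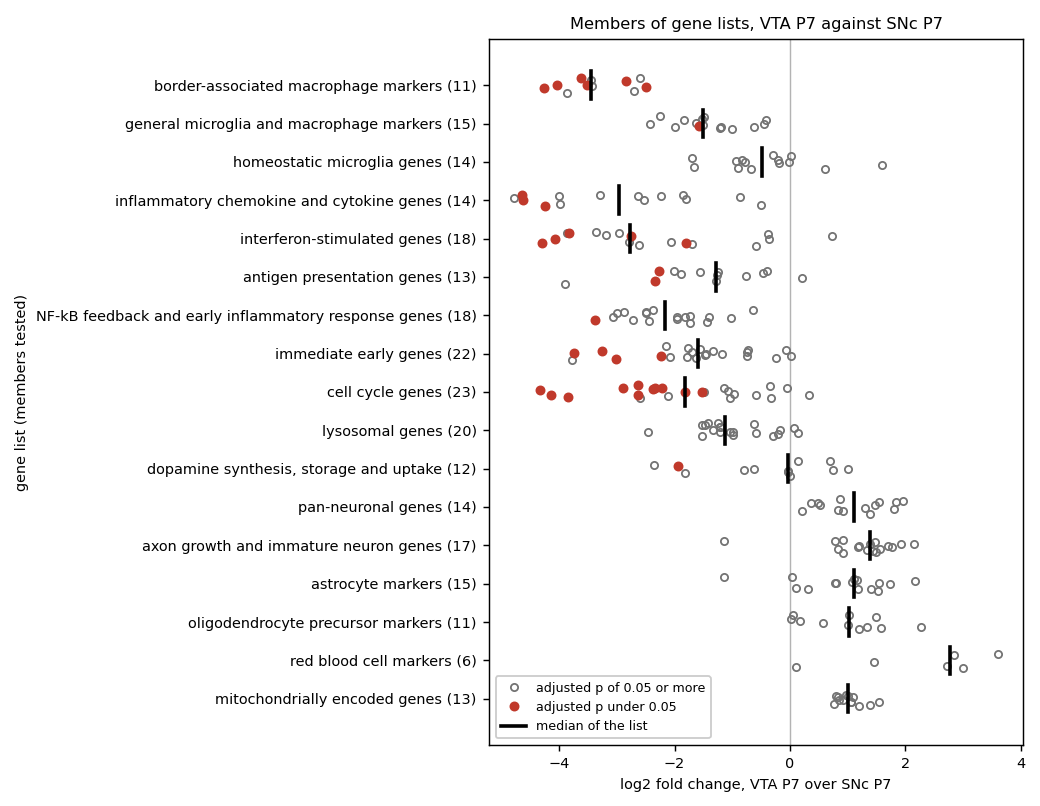
Members of 17 gene lists, VTA P7 against SNc P7. The x axis gives the log2 fold change of each member tested (number in brackets), filled red points passed the test at an adjusted p under 0.05, open points did not, and black bars are list medians. Border-associated macrophage markers, chemokines and interferon-stimulated genes have the lowest medians (-3.44, -2.96 and -2.77), and the pan-neuronal, axon growth, astrocyte, oligodendrocyte precursor, red blood cell and mitochondrially encoded lists have medians above 0 with no member called.

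Chemokine genes were lower in VTA P7, 3 of 14 tested past the test (Ccl9, Cxcl1 and Cxcl10) and none higher, against 1.42% of all genes called lower, with a median log2 fold change of -2.96. Cxcl1, a neutrophil attractant, was at 24.95, 11.6 and 0.106 in VTA P7, against 202, 231 and 117 in SNc P7 (log2 fold change -4.64 ± 0.80, adjusted p = 0.00227). Cxcl10, a ligand of the receptor Cxcr3, was at 5.04, 36.6 and 0.220 in VTA P7, against 134, 118 and 119.5 in SNc P7 (log2 fold change -4.25 ± 0.98, adjusted p = 0.0217). Ccl9, a mouse CC chemokine of myeloid cells, was at 0.0298, 9.46 and 0.130 in VTA P7, against 49.6, 62.3 and 59.4 in SNc P7 (log2 fold change -4.65 ± 0.98, adjusted p = 0.0123). No VTA library reached the lowest SNc library for these genes, and VTA P7 replicate 3 was near 0 for Cxcl1 and Cxcl10.

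The most abundant chemokines showed the same order with more spread. Ccl2, a monocyte attractant, was at 1008, 2241 and 10.1 in VTA P7, against 8468, 7702 and 8139 in SNc P7, and its difference did not pass the test (log2 fold change -4.79 ± 1.32, adjusted p = 0.0580). Ccl7, its neighbour in function, was at 867, 2662 and 32.04 in VTA P7, against 6843, 6487 and 6899 in SNc P7 (adjusted p = 0.199). VTA P7 replicate 3 was far below the other VTA libraries for both. Cxcl1 passed in each of the 6 fits that left out one of these libraries. Cxcl1 missed the threshold with pseudocount 0.1 and with the 6 libraries alone (adjusted p up to 0.125). Ccl9 missed the threshold without VTA P7 replicate 3 (adjusted p 0.0536). It also missed on the deposited scale, with the 6 libraries alone and with voom (adjusted p up to 0.128). Cxcl10 missed the threshold without VTA P7 replicate 3 or SNc P7 replicate 1, 2 or 3 (adjusted p 0.0678 to 0.130). Without VTA P7 replicate 3, 1 of the 14 passed and the median was -2.65, with pseudocount 0.1 or the 6 libraries alone 1 passed, and voom called 8.

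Promoters of the chemokine genes are shown because the NF-kB pathway is known to drive them. In RefSeq promoters of GRCm38.p6, from 250 bases before to 50 after each start site, the NF-kB site (both strands) was in 5 of 10 matched chemokine genes, against 5.14% of 27025 genes. The 250 bases before the start of Cxcl1 (chr5:90890995-90891244 on the plus strand) hold it at -71 on the gene's strand and, overlapping it, at -70 on the other strand, and those of Cxcl10 (chr5:92348890-92349139 on the minus strand) at -159 and -103, counted back from the start site. Both are printed 5′ to 3′ on the gene's strand with matches in capitals.
Cxcl1: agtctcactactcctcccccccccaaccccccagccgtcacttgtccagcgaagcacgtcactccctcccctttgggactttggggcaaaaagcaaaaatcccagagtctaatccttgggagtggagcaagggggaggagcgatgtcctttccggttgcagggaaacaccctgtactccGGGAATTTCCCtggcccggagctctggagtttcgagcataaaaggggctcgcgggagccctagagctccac
Cxcl10: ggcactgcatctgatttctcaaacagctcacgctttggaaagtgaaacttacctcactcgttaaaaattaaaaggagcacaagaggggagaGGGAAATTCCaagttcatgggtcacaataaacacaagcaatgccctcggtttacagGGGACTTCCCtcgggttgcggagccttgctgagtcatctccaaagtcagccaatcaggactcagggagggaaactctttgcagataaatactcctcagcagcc

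Interferon-stimulated genes were lower in VTA P7, 5 of 18 tested (Ifit1, Ifit3b, Irf7, Rsad2 and Bst2) and none higher, against 1.42% of all genes called lower, with a median log2 fold change of -2.77. Ifit1, which binds foreign RNA, was at 0, 0 and 0.0373 in VTA P7, against 35.95, 10.5 and 17.9 in SNc P7 (log2 fold change -4.31 ± 0.75, adjusted p = 0.00249). Irf7, a transcription factor of the type I interferon response, was at 0.0241, 0.0475 and 0 in VTA P7, against 11.1, 18.3 and 21.3 in SNc P7 (log2 fold change -4.08 ± 0.88, adjusted p = 0.0136). Ifit3b was at 0.136, 0.0897 and 0 in VTA P7, against 13.6, 10.6 and 19.99 in SNc P7 (log2 fold change -3.83 ± 0.78, adjusted p = 0.00994), and its reads may be shared with the near-identical Ifit3. VTA libraries held next to no reads of these 3 genes while each SNc library held them.

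Rsad2, the antiviral enzyme viperin, was at 0, 4.88 and 0.0229 in VTA P7, against 17.9, 10.4 and 7.55 in SNc P7 (log2 fold change -2.75 ± 0.59, adjusted p = 0.0137), with VTA P7 replicate 2 above the other VTA libraries and no overlap. Bst2, the virus-tethering protein tetherin, averaged 56.6 ± 25.9 in VTA P7 and 186 ± 31.1 in SNc P7 (log2 fold change -1.81 ± 0.48, adjusted p = 0.0487). Isg15, an interferon-induced ubiquitin-like protein, had no read in any VTA library and 13.9, 14.3 and 11.7 in SNc P7; the SNc mean was at least 33.9-fold higher than the value of 3 reads in the VTA library where 3 reads are worth the most, and the difference did not pass (adjusted p = 0.0515). Ifit1 passed in each of the 6 fits that left out one of these libraries. Ifit1 passed under every other alternative too. Ifit3b missed the threshold without SNc P7 replicate 3 (adjusted p 0.0504). It also missed with pseudocount 0.1 and with voom (adjusted p up to 0.0639). Irf7 missed the threshold without SNc P7 replicate 2 or 3 (adjusted p 0.0540 to 0.0642). Rsad2 missed the threshold without VTA P7 replicate 1 or 3 or SNc P7 replicate 1 (adjusted p 0.0577 to 0.0846). Bst2 missed the threshold without VTA P7 replicate 2 or 3 or SNc P7 replicate 1, 2 or 3 (adjusted p 0.0561 to 0.215). Of the 18, 3 passed without VTA P7 replicate 3 or SNc P7 replicate 1 or 2, and 2 without SNc P7 replicate 3; 3 passed with pseudocount 0.1.

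The interferon-response motif is shown in the promoters of Ifit1 and Rsad2 since its core, a pair of GAAA blocks with 2 free bases between them on either strand, is the site that interferon factors bind. It was in 8 of 12 matched genes of the list (66.7%), against 3.99% of all 27025 genes. The Ifit1 promoter (chr19:34640639-34640888 on the plus strand) holds it at -104 and -85 and the Rsad2 promoter (chr12:26456453-26456702 on the minus strand) at -120, each on the reverse strand. Capitals mark the matches.
Ifit1: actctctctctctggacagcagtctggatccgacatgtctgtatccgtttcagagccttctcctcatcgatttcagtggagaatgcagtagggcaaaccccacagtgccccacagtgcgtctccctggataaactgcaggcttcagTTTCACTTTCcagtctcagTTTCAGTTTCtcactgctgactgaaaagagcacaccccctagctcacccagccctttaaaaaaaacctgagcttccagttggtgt
Rsad2: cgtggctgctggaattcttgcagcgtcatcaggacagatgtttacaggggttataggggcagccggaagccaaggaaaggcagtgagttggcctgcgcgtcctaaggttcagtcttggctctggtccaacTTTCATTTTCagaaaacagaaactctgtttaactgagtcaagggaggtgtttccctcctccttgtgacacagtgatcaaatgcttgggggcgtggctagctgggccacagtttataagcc

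Of 18 NF-kB feedback genes, 1 was called lower, against 1.42% of all genes, with a list median of -2.17 and 15 genes lower in all VTA libraries, against 13.2% of all genes; voom called 11. The gene that passed was Rel, an NF-kB subunit of blood cells, at 15.6, 20.1 and 4.66 in VTA P7, against 160.5, 129 and 107 in SNc P7 (log2 fold change -3.39 ± 0.78, adjusted p = 0.0215). Zc3h12a, the RNase Regnase-1 that destroys cytokine messengers, was at 0.725, 0.405 and 0.0688 in VTA P7, against 32.96, 46.00 and 39.6 in SNc P7 (log2 fold change -4.87 ± 0.81, adjusted p = 0.00140). Casp1, the protease that matures interleukin 1 beta, was at 0, 0.479 and 0.0662 in VTA P7, against 49.9, 48.5 and 28.2 in SNc P7 (log2 fold change -5.17 ± 1.02, adjusted p = 0.00717). SNc values were far above VTA values for all 3 genes, with no overlap. Zc3h12a and Casp1 passed in each of the 6 fits that left out one of these libraries. Zc3h12a and Casp1 passed under every other alternative too. Rel missed the threshold without VTA P7 replicate 3 or SNc P7 replicate 1, 2 or 3 (adjusted p 0.0595 to 0.103).

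Of 13 antigen presentation genes, 2 passed, both lower in VTA, against 1.42% of all genes called lower, with a list median of -1.28. Tapbp, the tapasin that loads peptides on class I molecules, averaged 34.9 ± 12.9 in VTA P7 and 172 ± 10.5 in SNc P7 (log2 fold change -2.34 ± 0.49, adjusted p = 0.0123), and H2-D1, a class I heavy chain with near-identical relatives, averaged 341 ± 159 in VTA P7 and 1545 ± 129.7 in SNc P7 (log2 fold change -2.28 ± 0.53, adjusted p = 0.0217). Cd74, the class II invariant chain, was at 65.8, 50.8 and 37.5 in VTA P7, against 842, 767 and 674 in SNc P7, apart between the groups, and did not pass (log2 fold change -3.89 ± 1.59, adjusted p = 0.231). Tapbp missed the threshold without VTA P7 replicate 3 or SNc P7 replicate 3 (adjusted p 0.0522 to 0.0569). H2-D1 missed the threshold without VTA P7 replicate 1 or 3 or SNc P7 replicate 1, 2 or 3 (adjusted p 0.0504 to 0.0990).

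Among immediate early genes, 4 of 22 were lower in VTA P7 and none higher, against 1.42% of all genes called lower, with a median log2 fold change of -1.59. Fosl2, a subunit of the AP-1 transcription factor, was at 0.0282, 1.73 and 0.369 in VTA P7, against 27.5, 20.7 and 14.2 in SNc P7 (log2 fold change -3.75 ± 0.54, adjusted p = 0.000294). Nr4a1, an orphan nuclear receptor induced by many stimuli, was at 209, 394 and 76.9 in VTA P7, against 1708, 1442 and 1406 in SNc P7 (log2 fold change -3.02 ± 0.81, adjusted p = 0.0488). Nr4a3, its relative, was at 7.43, 2.05 and 0.348 in VTA P7, against 17.2, 15.4 and 11.1 in SNc P7 (log2 fold change -2.23 ± 0.55, adjusted p = 0.0312), and Arc, a regulator of synaptic receptors, was at 0, 1.09 and 2.07 in VTA P7, against 28.8, 15.8 and 10.3 in SNc P7 (log2 fold change -3.26 ± 0.77, adjusted p = 0.0241). The groups were apart for all 4.

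Fos, the founding member of the class, was at 653, 519 and 332 in VTA P7 and 729, 888 and 811 in SNc P7 (adjusted p = 0.635), and Egr1, a zinc finger factor, at 145, 157 and 100.2 in VTA P7 and 388, 478 and 502.9 in SNc P7 (adjusted p = 0.202); neither passed. Junb, another AP-1 subunit, averaged 709 ± 92.9 in VTA P7 and 3129 ± 384 in SNc P7 (adjusted p = 0.109). Hspa1a, a stress-induced chaperone whose reads may be shared with Hspa1b, averaged 1.25 ± 1.27 in VTA P7 and 20.5 ± 7.18 in SNc P7 and was the 1 of 14 heat shock genes that passed (log2 fold change -3.37 ± 0.87, adjusted p = 0.0424), against 1.42% of all genes called lower. Fosl2 passed in each of the 6 fits that left out one of these libraries. Fosl2 passed under every other alternative too. Arc missed the threshold without VTA P7 replicate 1 or SNc P7 replicate 1 or 2 (adjusted p 0.0714 to 0.126). It also missed with pseudocount 0.1, library medians made equal, the 6 libraries alone and voom. Nr4a3 and Hspa1a missed the threshold without VTA P7 replicate 2 or 3 or SNc P7 replicate 1, 2 or 3 (adjusted p 0.0579 to 0.163). Nr4a1 missed the threshold without VTA P7 replicate 1 or 3 or SNc P7 replicate 1, 2 or 3 (adjusted p 0.0782 to 0.204). Of the 22 immediate early genes, 1 passed without SNc P7 replicate 1 or 2, 2 without SNc P7 replicate 3 or VTA P7 replicate 1 or 3, 1 with pseudocount 0.1, and voom called 7.

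Cell cycle genes were lower in VTA P7, 11 of 23 tested and none higher, against 1.42% of all genes called lower, with a median log2 fold change of -1.82. Those that passed serve mitosis (Ccnb1, Ccnb2, Cdk1, Plk1, Bub1b, Cenpe, Cdca8, Birc5, Aurka and Aurkb), and Mcm2 is a subunit of the replicative helicase. Ccnb1, cyclin B1 (ENSMUSG00000041431, chr13:100778650-100786570, minus strand, GRCm38), was at 0, 0.319 and 0 in VTA P7, against 11.6, 9.54 and 28.3 in SNc P7 (log2 fold change -3.84 ± 0.44, adjusted p = 1.59e-05). Plk1, a mitotic kinase, was at 0.207, 0.0408 and 0.0451 in VTA P7, against 21.8, 21.99 and 19.4 in SNc P7 (log2 fold change -4.33 ± 0.75, adjusted p = 0.00223), from 5, 1 and 1 reads in VTA P7 and 662, 642 and 583 in SNc P7. Ccnb2, cyclin B2, was at 0, 2.75 and 2.14 in VTA P7, against 49.8, 29.1 and 40.9 in SNc P7 (log2 fold change -4.14 ± 0.83, adjusted p = 0.00815). SNc libraries held these 3 genes throughout, and no VTA library came near them.

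Cdk1, the kinase that cyclin B activates, was at 3.46, 5.45 and 0.0603 in VTA P7, against 17.2, 14.3 and 25.2 in SNc P7 (log2 fold change -2.63 ± 0.67, adjusted p = 0.0373). Bub1b, a spindle checkpoint kinase, was at 0, 1.30 and 0 in VTA P7, against 4.03, 7.38 and 6.66 in SNc P7 (log2 fold change -2.38 ± 0.47, adjusted p = 0.00633). VTA replicates 1 and 3 held no Bub1b read. The other 6 that passed, Cenpe, Cdca8, Birc5, Mcm2, Aurka and Aurkb, had log2 fold changes from -2.89 (Aurka) to -1.52 (Cenpe). Mki67 and Top2a, widely used marks of dividing cells, were at 1.14, 4.12 and 1.91 in VTA P7 and 4.59, 7.22 and 4.18 in SNc P7 and at 3.18, 1.07 and 0.495 in VTA P7 and 3.41, 3.69 and 4.42 in SNc P7 (adjusted p = 0.245 and 0.413), and did not pass. Ccnb1, Plk1, Ccnb2 and Bub1b passed in each of the 6 fits that left out one of these libraries. Ccnb1 and Plk1 passed under every other alternative too. Ccnb2 missed the threshold with pseudocount 0.1 and with voom (adjusted p up to 0.176). Bub1b missed the threshold with the 6 libraries alone (adjusted p up to 0.0948). Cenpe missed the threshold without SNc P7 replicate 3 (adjusted p 0.113). It also missed with pseudocount 0.1, quantile normalization, library medians made equal, the 6 libraries alone and voom (adjusted p up to 0.417). Cdca8 missed the threshold without VTA P7 replicate 3 or SNc P7 replicate 2 or 3 (adjusted p 0.0538 to 0.1004). Cdk1 missed the threshold without VTA P7 replicate 3 or SNc P7 replicate 1, 2 or 3 (adjusted p 0.0789 to 0.196). Birc5, Mcm2, Aurka and Aurkb missed the threshold without VTA P7 replicate 1 or 3 or SNc P7 replicate 1, 2 or 3 (adjusted p 0.0726 to 0.199). Of the 23, 7 passed without VTA P7 replicate 1, 5 without VTA P7 replicate 3, and 6, 5 and 4 without SNc P7 replicates 1, 2 and 3; voom, pseudocount 0.1 and the 6 libraries alone each gave 3.

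A pair of promoter elements known for G2 and M phase genes, chosen after the values of the list were seen, were counted in it: the CCAAT box, CCAAT, was in 19 of 21 matched genes (90.5%), against 41.1% of 27025 genes, and the CHR element, TTTGAA, in 11 (52.4%), against 20.2%. Both were read on either strand. Ccnb2 (chr9:70421555-70421804 on the minus strand) holds CCAAT at -87, -54 and -21, and Cdk1 (chr10:69352913-69353162 on the minus strand) holds it on the reverse strand at -208, -80 and -48. They are printed because their spaced boxes are typical of the class, with matches in capitals.
Ccnb2: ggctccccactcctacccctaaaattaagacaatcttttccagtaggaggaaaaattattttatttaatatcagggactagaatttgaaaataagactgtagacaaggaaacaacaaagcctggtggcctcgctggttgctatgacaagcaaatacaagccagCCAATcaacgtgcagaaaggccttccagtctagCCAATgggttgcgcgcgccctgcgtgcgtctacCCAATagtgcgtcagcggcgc
Cdk1: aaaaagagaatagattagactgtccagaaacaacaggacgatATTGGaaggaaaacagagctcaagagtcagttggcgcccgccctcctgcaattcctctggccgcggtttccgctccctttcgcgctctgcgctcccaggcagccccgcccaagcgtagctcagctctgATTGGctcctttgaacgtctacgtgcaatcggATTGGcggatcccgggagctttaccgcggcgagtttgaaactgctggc

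Bmp2, a bone morphogenetic protein ligand (ENSMUSG00000027358, chr2:133552159-133562885, plus strand, GRCm38), was at 0.0511, 4.26 and 0.112 in VTA P7, against 45.5, 50.2 and 31.4 in SNc P7 (log2 fold change -4.54 ± 0.56, adjusted p = 3.95e-05). Csf1, the growth factor of macrophages, was at 4.35, 2.34 and 1.26 in VTA P7, against 62.98, 38.8 and 34.6 in SNc P7 (log2 fold change -3.71 ± 0.69, adjusted p = 0.00418). Anxa5, which binds phosphatidylserine, was at 21.1, 56.6 and 0.390 in VTA P7, against 294, 300.3 and 288 in SNc P7 (log2 fold change -4.61 ± 1.14, adjusted p = 0.0328). The groups did not overlap for these 3 genes, the SNc libraries were close together for Anxa5, and VTA P7 replicate 3 was lowest for Csf1 and Anxa5.

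Gm6377, a predicted gene, was at 24.9, 26.2 and 0.284 in VTA P7, against 254, 245 and 241 in SNc P7 (log2 fold change -4.68 ± 0.74, adjusted p = 0.000857). Bcl2a1a, an antiapoptotic gene of blood cells, had no read in VTA P7 and 18.8, 20.3 and 23.97 in SNc P7 (adjusted p = 0.0181); the SNc mean was at least 57.9-fold higher than the value of 3 reads in a VTA library, and its reads may be shared with near-identical copies. Tal1, a transcription factor of blood, endothelial and some GABAergic midbrain cells, was at 0.0207, 0.123 and 0 in VTA P7, against 5.26, 10.9 and 5.85 in SNc P7 (log2 fold change -2.93 ± 0.56, adjusted p = 0.00487). It was the 1 of 12 GABAergic list genes that passed, against 1.42% of all genes called lower. Bmp2, Csf1, Gm6377 and Tal1 passed in each of the 6 fits that left out one of these libraries. Bmp2 missed the threshold with the 6 libraries alone (adjusted p up to 0.0523). Csf1 missed the threshold with pseudocount 0.1 (adjusted p up to 0.0783). Gm6377 missed the threshold with pseudocount 0.1 and with the 6 libraries alone (adjusted p up to 0.131). Tal1 missed the threshold on the deposited scale (adjusted p up to 0.351). Anxa5 missed the threshold without VTA P7 replicate 3 or SNc P7 replicate 1, 2 or 3 (adjusted p 0.0983 to 0.192). Bcl2a1a missed the threshold without SNc P7 replicate 1, 2 or 3 (adjusted p 0.0572 to 0.0717).

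The genes most increased in VTA P7 were at low to moderate levels. Kitl, the ligand of the receptor Kit (ENSMUSG00000019966, chr10:100015630-100100416, plus strand, GRCm38), was at 12.9, 12.6 and 8.87 in VTA P7, against 0.478, 0.892 and 0.223 in SNc P7 (log2 fold change 3.03 ± 0.57, adjusted p = 0.00440). Ntng1, a netrin-related adhesion protein of axons, was at 27.7, 8.10 and 7.45 in VTA P7, against 0.562, 2.01 and 0.809 in SNc P7 (log2 fold change 2.67 ± 0.50, adjusted p = 0.00440). Farp1, a guanine nucleotide exchange factor that acts in dendrites and synapses, was at 20.9, 17.8 and 41.3 in VTA P7, against 2.99, 3.14 and 1.43 in SNc P7 (log2 fold change 2.92 ± 0.71, adjusted p = 0.0307). Every VTA library lay above every SNc library for these 3 genes.

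Syt7, a calcium sensor of exocytosis, was at 13.2, 14.8 and 16.4 in VTA P7, against 2.61, 1.74 and 1.84 in SNc P7 (log2 fold change 2.37 ± 0.57, adjusted p = 0.0293). Jph4, a junctophilin that joins neuronal endoplasmic reticulum to the plasma membrane, was at 19.96, 25.5 and 14.2 in VTA P7, against 2.02, 3.16 and 3.08 in SNc P7 (log2 fold change 2.46 ± 0.57, adjusted p = 0.0216). Fam155a, a subunit of the sodium leak channel complex, was at 13.2, 13.1 and 33.4 in VTA P7, against 1.90, 3.20 and 3.75 in SNc P7 (log2 fold change 2.30 ± 0.52, adjusted p = 0.0181). Dscam, an adhesion molecule of neurite self-avoidance, averaged 15.2 ± 10.5 in VTA P7 and 2.13 ± 1.34 in SNc P7 (n = 3 each; log2 fold change 2.29 ± 0.61, adjusted p = 0.0481). VTA P7 replicate 3 was the highest library for Syt7, Fam155a and Dscam.

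Rras2, a small GTPase of the Ras family, averaged 10.7 ± 6.63 in VTA P7 and 0.951 ± 0.219 in SNc P7 (log2 fold change 2.44 ± 0.46, adjusted p = 0.00440). Srbd1, which carries an S1 RNA-binding domain, averaged 9.89 ± 4.16 in VTA P7 and 0.302 ± 0.322 in SNc P7, and Zfp811, a zinc finger gene, averaged 17.5 ± 6.81 in VTA P7 and 1.84 ± 1.10 in SNc P7 (adjusted p = 0.00655 and 0.00307). Serpind1, the plasma inhibitor heparin cofactor II, was at 2.57, 9.58 and 21.4 in VTA P7, against 0.959, 0 and 0 in SNc P7, and Mpped2, a metallophosphoesterase, averaged 15.2 ± 6.14 in VTA P7 and 2.25 ± 1.32 in SNc P7 (adjusted p = 0.0246 and 0.0497). Kitl, Ntng1, Rras2, Srbd1 and Zfp811 passed in each of the 6 fits that left out one of these libraries. Kitl passed under every other alternative too. Ntng1, Srbd1 and Zfp811 missed the threshold with pseudocount 0.1 and with the 6 libraries alone (adjusted p up to 0.242). Rras2 missed the threshold with pseudocount 0.1, with the 6 libraries alone and with voom (adjusted p up to 0.209). Farp1 missed the threshold without VTA P7 replicate 3 or SNc P7 replicate 1, 2 or 3 (adjusted p 0.0731 to 0.132). Syt7 missed the threshold without VTA P7 replicate 2 or 3 or SNc P7 replicate 1, 2 or 3 (adjusted p 0.0508 to 0.105). Jph4 missed the threshold without VTA P7 replicate 2 or SNc P7 replicate 1, 2 or 3 (adjusted p 0.0556 to 0.106). Fam155a missed the threshold without VTA P7 replicate 3 or SNc P7 replicate 1 or 2 (adjusted p 0.0535 to 0.104). Dscam and Mpped2 missed the threshold without VTA P7 replicate 1 or 3 or SNc P7 replicate 1, 2 or 3 (adjusted p 0.0573 to 0.237). Serpind1 missed the threshold without VTA P7 replicate 3 or SNc P7 replicate 2 or 3 (adjusted p 0.0985 to 0.121).

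Pan-neuronal, axon growth and astrocyte lists had medians above 0 and no call. Over all 18888 genes, 2804 had an unadjusted p under 0.05 and voom called 917. Of 14 pan-neuronal genes, limma called none, 4 had an unadjusted p under 0.05 and voom called 7, all higher in VTA; the median log2 fold change was 1.12, and 8 were higher in all VTA libraries, against 10.1% of all genes tested. Tubb3, the neuronal beta tubulin, was at 243, 595 and 208 in VTA P7 and 53.3, 119.6 and 78.9 in SNc P7 (adjusted p = 0.240). Of 17 axon growth genes, limma called none, 9 had an unadjusted p under 0.05 and voom called 10 higher and 1 lower; the median was 1.39. Basp1, a growth cone protein, was at 32.2, 27.1 and 32.9 in VTA P7 and 6.56, 6.90 and 5.10 in SNc P7 (adjusted p = 0.196). VTA libraries were above all SNc libraries for Tubb3 and Basp1.

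Of 15 astrocyte markers, limma called none, 6 had an unadjusted p under 0.05 and voom called 3, with a median of 1.10. Sox9, a transcription factor of astrocytes, was at 116, 68.5 and 48.1 in VTA P7 and 25.4, 21.8 and 17.4 in SNc P7, and Slc4a4, a bicarbonate transporter, at 14.9, 8.62 and 16.6 in VTA P7 and 3.60, 3.54 and 4.24 in SNc P7 (adjusted p = 0.182 and 0.0915). Both were apart between the groups. Beside these, the summed level of the border-associated macrophage list was 84.7 to 707 in VTA P7 and 2563 to 2953 in SNc P7, and that of the shared microglia and macrophage list was 4917 to 5178 in VTA P7 and 13304 to 14472 in SNc P7. The part of macrophage RNA in the neuronal and glial differences was not tested.

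Mitochondrially encoded genes had log2 fold changes above 0 for 13 of 13, 12 of them with every VTA library above every SNc library (against 10.1% of all genes), and a median of 1.01. Limma called none, 8 had an unadjusted p under 0.05 and voom called 6, against 2804 and 917 of all 18888 genes. mt-Nd4, a subunit of complex I, was at 4791, 3396 and 5282 in VTA P7 and 2297, 1936 and 2160.2 in SNc P7 (adjusted p = 0.0813). Red blood cell genes had a median of 2.78 over 6 genes, with 4 higher in all VTA libraries, against the same 10.1%. Limma called none of them, 4 had an unadjusted p under 0.05 and voom called 3. Hba-a2, an alpha globin with a near-identical copy, was at 93.7, 267 and 229 in VTA P7 and 33.8, 17.96 and 3.84 in SNc P7 (adjusted p = 0.0685). The groups did not overlap for mt-Nd4 or Hba-a2. Their part in the other differences was not tested.

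Genes that separate VTA from SNc dopamine neurons did not pass the test. Cck, a neuropeptide of VTA neurons, was at 92.7, 33.3 and 22.5 in VTA P7 and 0.722, 6.29 and 7.02 in SNc P7 and missed the threshold (log2 fold change 3.18 ± 0.86, adjusted p = 0.0503). Slc17a6, the vesicular glutamate transporter of neurons that co-release glutamate, was at 67.5, 38.5 and 28.7 in VTA P7 and 12.1, 5.25 and 14.1 in SNc P7 (log2 fold change 2.01 ± 0.66, adjusted p = 0.123). Otx2, a transcription factor of VTA neurons, was at 4.52, 1.38 and 0 in VTA P7 and 1.27, 0 and 0 in SNc P7 (adjusted p = 0.530). Cck and Slc17a6 were higher in every VTA library, and Otx2 overlapped. Calb1 and Calb2, calcium-binding proteins of VTA neurons, overlapped too, with means of 13.1 ± 9.29 in VTA P7 and 9.50 ± 5.07 in SNc P7 and of 31.4 ± 31.3 in VTA P7 and 17.01 ± 3.65 in SNc P7 (adjusted p = 0.959 and 0.967).

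Of the SNc-enriched list, Aldh1a1, an aldehyde dehydrogenase, was at 3.88, 1.13 and 5.44 in VTA P7 and 0.0294, 0.962 and 2.58 in SNc P7, and Sox6, a transcription factor of SNc neurons, stayed at or below 0.469 in all 6 libraries. Igf1, an insulin-like growth factor that macrophages also make, was at 3.41, 6.07 and 3.40 in VTA P7 and 26.4, 25.9 and 26.1 in SNc P7 (log2 fold change -2.40 ± 0.76, adjusted p = 0.106). Anxa1, which phagocytes also make, was at 0, 5.78 and 0 in VTA P7 and 10.2, 10.8 and 10.9 in SNc P7 (log2 fold change -2.62 ± 1.16, adjusted p = 0.277). Both lay lower in every VTA library and did not pass. Over the lists, limma called none of 10 SNc-enriched and none of 11 VTA-enriched genes, with medians of -0.12 and 0.74. Of the SNc-enriched genes, 1 higher and 3 lower had an unadjusted p under 0.05, and voom called 1 lower. Of the VTA-enriched genes, 2 higher and 1 lower had an unadjusted p under 0.05, and voom called 2 higher. Lpl was the 1 VTA-enriched gene with a log2 fold change below 0 (-1.70, adjusted p = 0.214 in limma's test). The SNc-enriched median was 0.38 under quantile normalization, 0.06 without VTA P7 replicate 2 and -0.99 with voom, and the VTA-enriched median was 0.24, 0.28 and 1.15 without VTA P7 replicates 1, 2 and 3 and 2.07 with voom. With Cck, the adjusted p ranged over the fits that left out one of these libraries from 0.0536 to 0.265. Among the 19 alternatives, Cck passed in 8 and Slc17a6 in 4, higher in VTA. Igf1 passed in 5 and Lpl in 2, lower in VTA. None of these passes came from a fit that left out one of these libraries.

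Against 1.42% of all genes called lower, 1 of 12 genes for dopamine synthesis, storage and uptake passed, lower in VTA. It was Gch1, which makes the cofactor of Th and is also induced in macrophages, at 1.83, 6.80 and 1.33 in VTA P7, against 10.95, 14.6 and 14.97 in SNc P7 (log2 fold change -1.95 ± 0.48, adjusted p = 0.0325). Slc18a2, the vesicular monoamine transporter, was at 1.84, 28.6 and 5.76 in VTA P7 and 12.1, 4.16 and 8.13 in SNc P7, and Ddc, the decarboxylase that makes dopamine, at 1.22, 3.68 and 0 in VTA P7 and 0.698, 1.71 and 0.673 in SNc P7 (adjusted p = 1.00 and 0.984). Nr4a2, a transcription factor of dopamine neurons and an immediate early gene in macrophages, was at 17.2, 15.7 and 9.57 in VTA P7 and 65.7, 65.97 and 40.2 in SNc P7 (log2 fold change -1.95 ± 0.61, adjusted p = 0.102). Gch1 and Nr4a2 were lower in every VTA library, whereas Slc18a2 and Ddc overlapped. Gch1 missed the threshold without VTA P7 replicate 1 or 3 or SNc P7 replicate 1, 2 or 3 (adjusted p 0.0741 to 0.133).

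Libraries of the NAc at P7, the forebrain target of VTA neurons, give the same genes in another region at the same age. They are set beside both groups as levels, and test results against the NAc are not given here. For F13a1 they held 2.55, 1.57 and 3.48 and for Lyve1 10.4, 3.71 and 8.12, far below SNc P7 and within or near the VTA P7 range. For Cxcl1, NAc P7 held 1.14, 1.30 and 2.68, and for Bmp2 0.349, 0.855 and 1.35, again near the VTA and below the SNc. The chemokine list as a whole lay between the groups, with a median log2 value of 6.99, 7.09 and 7.24 in NAc P7. That median was 5.01, 6.54 and 5.25 in VTA P7 and 8.19, 8.70 and 8.30 in SNc P7. Cell division genes were ordered otherwise. Ccnb1 was at 60.3, 45.8 and 59.9 and Plk1 at 38.2, 27.8 and 29.6 in NAc P7, above all SNc and VTA libraries. P2ry12 was at 419, 343 and 406 and Tmem119, another microglia gene, at 199, 224 and 213, where Tmem119 had 8.36, 16.9 and 12.8 in VTA P7 and 60.02, 33.1 and 34.7 in SNc P7. Kitl was at 0.827, 2.87 and 2.34 and Farp1 at 2.47, 3.94 and 2.16 in NAc P7, below every VTA library.

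**Figure D4:**
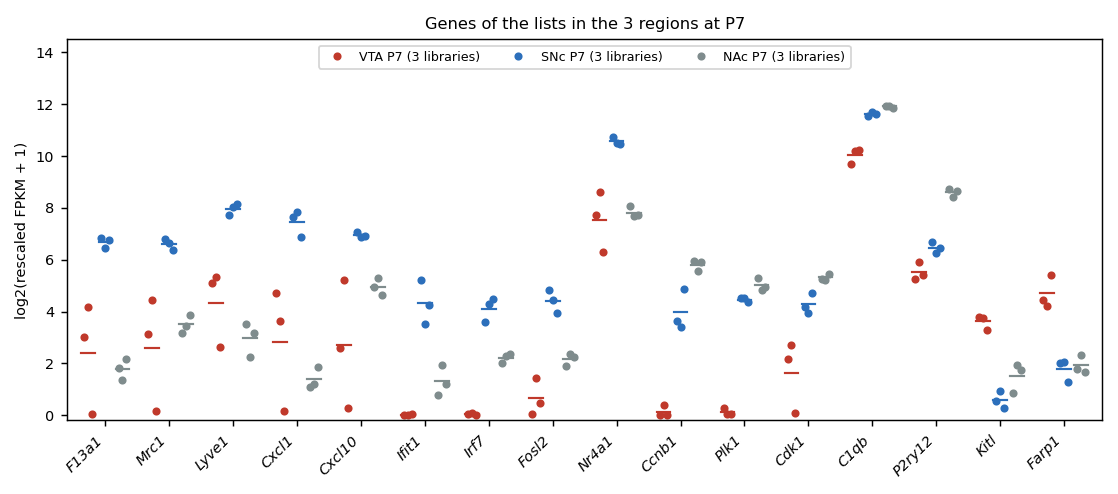
Genes of the lists in the 3 regions at P7. The y axis gives log2(rescaled FPKM + 1), points are libraries (VTA P7 red, SNc P7 blue, NAc P7 grey, 3 each) and bars are means. F13a1, Mrc1, Lyve1, Cxcl1 and Cxcl10 are highest in SNc P7, Ccnb1 and Plk1 are highest in NAc P7, and Kitl and Farp1 are highest in VTA P7.

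The difference between VTA and SNc at P7 was compared with that at postnatal day 60 (P60), in adult mice of the same genotype sorted the same way. The P7 and P60 libraries carry different date and run prefixes, so age and run cannot be told apart, while each difference is taken within 1 prefix. In limma's contrast of the difference at P7 with that at P60, 73 of 18888 genes passed (0.386%), 65 with a lower (0.344%) and 8 with a higher (0.0424%) difference at P7. The count was 130 without VTA P7 replicate 2, and 46, 31 and 41 without VTA P60 replicate 3, SNc P60 replicate 3 and SNc P60 replicate 4. At P60, Bmp2 was at 1.01, 0 and 1.63 in VTA and 0.172, 0.0226 and 0.690 in SNc, and the log2 difference at P7 less that at P60 was -5.00 ± 0.80, adjusted p = 0.00351. Zc3h12a was at 24.5, 6.78 and 24.98 in VTA P60 and 11.6, 5.19 and 7.81 in SNc P60 (-5.84 ± 1.14, adjusted p = 0.0164). At P60 the groups overlapped for both genes.

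Fosl2 was at 2.86, 2.92 and 3.27 in VTA P60 and 2.43, 0.158 and 0.806 in SNc P60 (-4.81 ± 0.76, adjusted p = 0.00351), with every VTA P60 library above every SNc P60 library. Ccnb1 had no read in any of the 6 P60 libraries, so its P60 difference was 0 by construction and the contrast restates its P7 difference (-3.84 ± 0.62, adjusted p = 0.00351). Folr2 was at 1.28, 6.93 and 2.63 in VTA P60 and 2.10, 0 and 2.83 in SNc P60 (-4.34 ± 0.97, adjusted p = 0.0435). Farp1 was at 5.29, 0.0822 and 4.83 in VTA P60 and 6.42, 7.12 and 18.9 in SNc P60, and its difference was higher at P7 (4.56 ± 1.00, adjusted p = 0.0393). Of the 11 border-associated macrophage markers, 1 passed this contrast, and of the 23 cell cycle genes only Ccnb1. The P7 difference of most genes named here was therefore not shown to differ from that at P60. Many were picked by the same P7 values that the contrast uses, which favours a larger difference at P7.

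**Figure D5:**
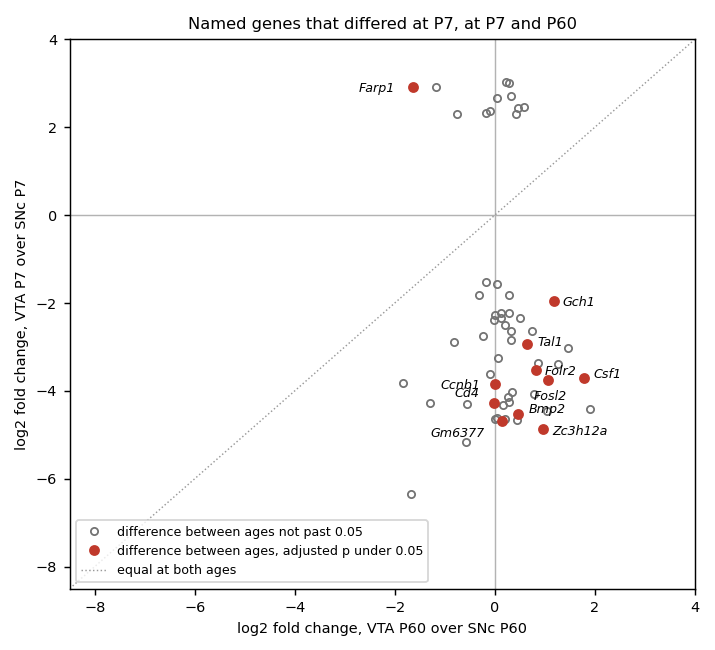
Log2 fold changes of VTA over SNc at P60 (x axis) and at P7 (y axis) for the named genes that passed the test at P7. Filled red points passed the test of the difference between the ages, open points did not, and the dotted line marks equal values. Farp1 is at 2.92 at P7 and below 0 at P60, and the 10 other genes in red lie lower at P7 than at P60.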

How the data were processed

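RNA from cells sorted for DAT was measured by SMART-seq2 with 150 bp paired-end reads, per the labels' protocols. HISAT2 and GRCm38/mm10 are named by the submitters' processing notes, while for the gene counter and its strand setting the sources used here give nothing. The authors deposited FPKM, reads per kilobase of gene scaled to depth, for 54532 genes in 27 libraries, on another scale (unit other) for 1 VTA P30 library, with the deposited gene length in bases (unit other). Each column was rescaled so that FPKM times gene length in kilobases summed to 1000000, which makes 1 scale for all libraries. In all 27 libraries, 100% of values were whole multiples of 1 read within 0.02 for levels below 1000 reads, which gave reads per gene. Gene IDs were matched to GENCODE M21, 54495 of 54532, since the deposited names matched their IDs for 427.

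The test took in genes that reached 1 on the rescaled scale in 3 or more of 27 libraries and was done with limma 3.58.1 in R 4.3.3 (statmod 1.5.0) on log2(value + 1), with 1 term per region and age, trended and robust variances, Benjamini-Hochberg adjustment over 18888 genes and a threshold of 0.05. Voom with sample weights on recovered reads, other scalings, filters, pseudocounts, sets of libraries and a replicate block were alternatives. SMART-seq2 does not mark strand, so reads of overlapping or antisense genes cannot be told apart. Named genes were the 12 protein-coding genes with the largest increase and decrease among those past the threshold, apart between the groups and with a mean of at least 5, up to 4 genes by adjusted p from each list with at least 3 called, the dopaminergic genes, and up to 8 that passed the contrast with P60. The genes, lists and rules were chosen with earlier results of these data known, and the other named genes were chosen after their values were seen. Tables and plots used Python 3.11.15, numpy 2.4.6, pandas 2.3.3 and matplotlib 3.10.9. The programs were tested on simulated data.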

Additional observations from a re-analysis of the deposited data

Results flagged for a closer look

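The difference between VTA and SNc was itself different at P7 and P60 for 11 of the named genes, and for 73 of all 18888 genes (0.386%). The test was limma's contrast with Benjamini-Hochberg adjustment over all genes. Values are the log2 difference at P7 less that at P60. It was lower at P7 for Zc3h12a (-5.84), Csf1 (-5.50), Bmp2 (-5.00), Gm6377 (-4.83), Fosl2 (-4.81), Folr2 (-4.34), Cd4 (-4.26), Ccnb1 (-3.84), Tal1 (-3.58) and Gch1 (-3.13). It was higher at P7 for Farp1 (4.56). Ccnb1 had no read at P60, so its value restates the P7 difference. Many named genes were picked for a difference in these same P7 libraries. That choice favours a larger difference at P7 than at P60, so the 11 are no independent support. Age and run prefix cannot be told apart.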

How the results depend on the processing

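Of 59 called named genes, none reversed and 8 passed in all 19 alternatives, and of 48 others 23 passed in at least 1. For called genes that missed the threshold without a P7 library, further misses are given above only for Ccl9, Ifit3b, Arc and Cenpe. Calb1, Calb2, Ddc, Slc18a2 and Sox6, which were not called, had log2 fold changes on both sides of 0 across the alternatives. Fits without 1 P60 library, or without SNc P60 replicate 3 and VTA P60 replicate 2, were not scored for named genes. These fits are not among the 19, and they called 334 to 418 genes at P7. The count of 394 genes at P7 (126 higher, 268 lower) was 251 with 55 higher under the stricter filter, 130 (9 and 121) with pseudocount 0.1, where 39 called named genes missed the threshold, 639 (204 and 435) under quantile normalization, 221 (47 and 174) with the 6 libraries alone, 1597 (598 and 999) with the 9 P7 libraries alone, 1467 (538 and 929) without 4 libraries outside the comparison, and 917 (418 and 499) with voom. Of the 394 genes, 122 also passed with pseudocount 0.1, 332 under quantile normalization and 90 with the 6 libraries alone. With the 9 P7 libraries alone 322 of them passed, with voom 235, and without VTA P7 replicate 3, 183. The median of all genes moved to -0.17 with pseudocount 0.1 and with voom. Leaving out a P7 library gave 170 to 512 genes, 33 to 180 higher and 135 to 332 lower; the lower count was 143 without VTA P7 replicate 3. The count of 73 for P7 against P60 was 24 with pseudocount 0.1, 149 under quantile normalization, 42 without SNc P60 replicate 3 and VTA P60 replicate 2, and 31 to 130 when a library was left out. Same-numbered VTA and SNc libraries did not deviate together (correlations 0.0197, 0.0199 and 0.00371), so the numbers were not taken as pairs; with the replicate number as a block, 307 genes passed at P7 (78 higher, 229 lower) and 36 for P7 against P60. The causes of these changes were not tested. With 3 libraries a group, and VTA libraries of 10090855 to 11147696 reads, a gene that did not pass is not shown to be equal.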

Other observations

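Lysosomal genes lay below 0 in VTA P7, with a median log2 fold change of -1.12 over 20 genes and 13 lower in all VTA libraries, against 13.2% of all genes. Limma called none, 8 had an unadjusted p under 0.05 and voom called 9. For this list and those below, the background is 2804 genes with such a p and 917 voom calls among 18888 genes. Ctsb, a cathepsin protease, averaged 474 ± 36.9 in VTA P7 and 1103 ± 11.02 in SNc P7 (adjusted p = 0.114). Vessel and lining markers lay above 0 without calls. Of 14 endothelial markers limma called none, 3 had an unadjusted p under 0.05 and voom called 1, with a median of 0.65; Cldn5, a tight junction protein, was at 53.6, 32.4 and 78.2 in VTA P7 and 6.40, 8.88 and 6.41 in SNc P7 (adjusted p = 0.232). Ttr, the transthyretin of the choroid plexus, was at 124, 137 and 515 in VTA P7 and 17.8, 16.8 and 6.49 in SNc P7 (adjusted p = 0.0511), and 1 of 8 ependymal and choroid plexus markers had an unadjusted p under 0.05 with none called by limma or voom.

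Of 11 oligodendrocyte precursor markers limma called none, 2 had an unadjusted p under 0.05 and voom called 1, with a median of 1.02. Of 14 myelinating oligodendrocyte markers none was called by limma or voom or had an unadjusted p under 0.05 (median 0.62). Of 22 cholesterol synthesis genes limma called none, 1 had an unadjusted p under 0.05 and voom called 1 (median 0.52). Of 14 Parkinson disease genes none was called by limma or voom and 1 had an unadjusted p under 0.05 (median 0.37). The AP-1 motif TGANTCA was in 0 of 18 matched immediate early genes, against 8.97% of 27025 promoters, and the CRE TGACGTCA in 2 (11.1%), against 2.03%. With 18 genes, 0 cannot be told apart from 8.97%. The AP-1 motif was in 5 of 12 interferon-stimulated, 4 of 10 chemokine, 2 of 9 border-associated macrophage and 0 of 21 cell cycle genes. The NF-kB site was in 5 of the 18 immediate early genes (27.8%), against 5.14%. These shares were not tested.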
